A study of Mus musculus with 304 samples.

Results

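Granule cells of the mouse dentate gyrus that had been exposed for 1 month to an adeno-associated virus (AAV) carrying GFP were set against granule cells of mice that had received no injection. Members were chosen from the labels alone: libraries whose quality control label is Passed, 59 of the group named GFP_Control and 31 of the group named DG, together 90 of the 252 passing cells of the series. Each library is 1 cell, drawn as cytosol into a patch pipette (Patch-seq). The series uses the GFP cells as the control for virus that carries Id2, and the DG cells as the control for kainic acid, so the pair compared here differs by injection, virus and GFP protein together, and these cannot be told apart. The labels used here give no strain, age, serotype, promoter or animal for either group. Because no animal is named, each group stands as 1 sample: no difference was tested, no p-value is given, and every statement below describes these 2 pools of cells.

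Levels are CPM, a gene's summed reads over the cells of a group, scaled to a common total (counts per 1000000). A log2 ratio is GFP over control after adding 1 CPM, and folds are ratios of CPM without that addition. Intervals are exact Poisson intervals at 95% for summed reads and exact Clopper-Pearson intervals at 95% for shares of cells. They cover counting error only, and not the spread between cells or mice. GFP cells had between 312004 and 7596250 reads (median 3957794) and control cells between 32487 and 7923833 (median 1738610). The only mark of a possible batch is the library title: GFP cells are titled IDS, with 43 cells numbered to 95 and 16 numbered higher, while 22 control titles start with J and 9 do not. No title series holds both groups, so group and title series cannot be told apart. A ratio is therefore also given for the 4 pairings of a GFP title set with a control title set, which share cells and are not independent of each other. No duplicated library was seen: the highest correlation between any 2 of the 90 cells, over log2(CPM + 1), was 0.593.

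Granule cells are excitatory neurons that use glutamate, carry the transcription factor Prox1 and the calcium buffer calbindin, and fire rarely at rest. Strong synaptic input switches on immediate early genes, which need no protein synthesis for their induction. Some of their products, such as Fos, Jun and the Egr family, are transcription factors. Other activity-regulated genes, early or later, encode effectors that act at the synapse and on signalling. AAV reaches neurons through surface receptors and endosomes, and a virus or tissue injury can be sensed by pattern recognition receptors that lead to interferon-stimulated and inflammatory genes. Microglia, the resident phagocytes of the brain, touch neurons closely, and their markers are read here as a check on other cells in the samples.

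As pools, both groups carried the label's cell type in their transcripts. The GFP cell IDS107 stood apart, with the lowest sum of granule cell effector markers of all cells (292 CPM). It held 14.06% mitochondrial reads, and 12273, 5949 and 4510 CPM of astrocyte, oligodendrocyte and microglia markers. Calb1, which encodes calbindin, was at 1117 CPM in GFP cells and 1249 CPM in control cells, with a read in 93.2% and 96.8% of the cells. Its level over cells ran from 0 through a median of 899 to 3281 CPM with GFP and from 0 through 1195 to 3015 CPM without. Prox1 was at 296 against 217 CPM (log2 0.45, between -0.52 and 0.95 in the pairings). Slc17a7, the vesicular glutamate transporter of granule cells, was at 491 against 550 CPM. Gad1, which encodes a GABA-synthesising enzyme that granule cells are known to express, was at 577 against 671 CPM, while Gad2, a marker of interneurons, was at 0.85 against 0.10 CPM. These ranges overlapped almost wholly between the groups. GFP itself could not be checked, since the rows used here name no GFP transgene.

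A gene counted as measured where 1 group had it at 5 CPM or more and 1 group had a read in 20% or more of its cells, which left 8085 of 22800 genes. Of these, 1558 (19.3%) were at least 2-fold higher in GFP cells and 1052 (13%) at least 2-fold lower, 32.3% together. The median gene was 0.13 log2 higher, with quartiles of -0.51 and 0.79. That surplus of higher genes depended on the scaling: by the median of ratios the median gene stood at -0.03 and the counts at 1256 higher and 1317 lower, and by TMM at 0.01, 1322 and 1254. In all 4 pairings, 2048 genes (25.3%) were higher and 1288 (15.9%) lower by any amount, and 492 (6.09%) and 290 (3.59%) by 2-fold or more. The same measure between title sets of 1 group was no smaller: 46.5% of genes lay 2-fold or more apart between the J-titled and the other controls, and 36.9% between the GFP title sets, which are smaller pools. Spearman's rho over genes, a description in which genes are not independent, was 0.732 between the groups, 0.660 between the control sets and 0.729 between the GFP sets.

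Low genes made up most of that distance. Of 3010 genes with a mean level between 5 and 50 CPM, 44.2% were 2-fold or more apart, against 27.6% of 4029 genes between 50 and 200 CPM and 10.98% of 902 genes between 200 and 1000 CPM. Of the 67 genes at 1000 CPM or above, 10 were 2-fold or more apart. Higher in GFP cells were Fos, Egr4, Gadd45g (a stress and activity response gene) and Ubb (polyubiquitin). Lower were Cst3 and Ftl1, 3 mitochondrial transcripts (mt-Co1, mt-Cytb and mt-Nd1) and Rn18s-rs5, a row that takes up ribosomal RNA reads.

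**Figure D1:**
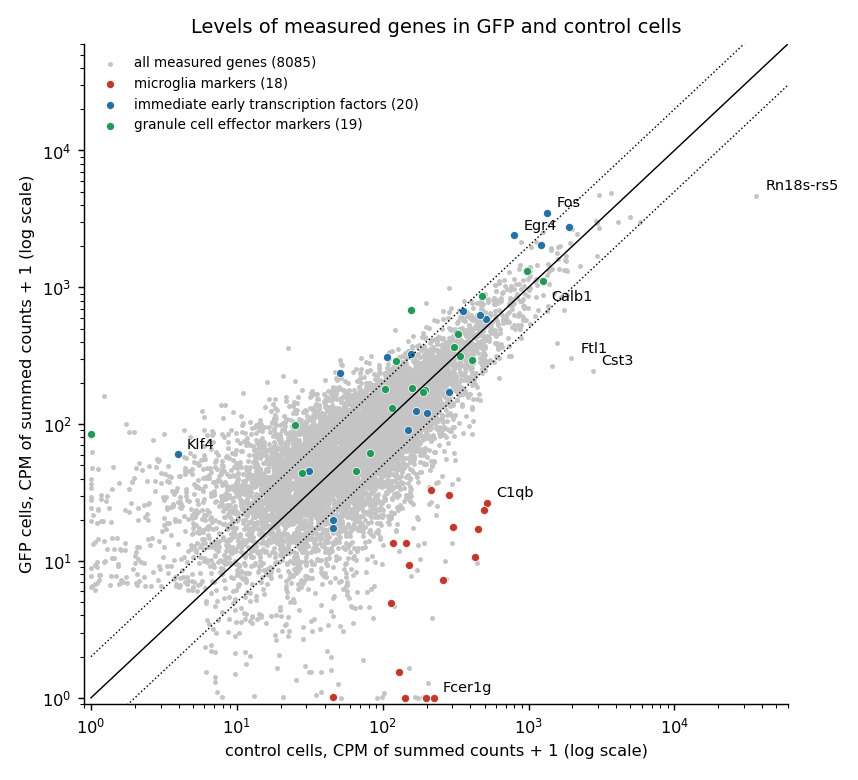
Each point is 1 measured gene, with its level in control cells on the x axis and in GFP cells on the y axis, both as CPM of summed counts plus 1 on log scales; the solid line marks equal levels and the dotted lines 2-fold. Microglia markers (red) lie far below the lines, Fos and Egr4 lie above them among abundant genes, and granule cell effector markers (green) lie mostly between them.

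The immediate early transcription factors had the highest median ratio, over all cells, of the lists with at least 3 measured members. Without the cells rich in microglia transcripts described below, their median was 0.64, under the 0.72 of granule cell effector markers and the 0.93 of MHC class I genes. Of 22 listed genes, 20 were measured, 14 were higher and 6 lower in GFP cells, 7 were at least 2-fold higher (35%, beside 19.3% of all measured genes) and 2 at least 2-fold lower (10%, beside 13%). Their median log2 ratio was 0.54, beside 0.13 over all measured genes, and it lay between 0.35 and 1.37 in the 4 pairings. Summed over the list, GFP cells ran from 235 through a median of 14495 to 38364 CPM per cell, and control cells from 1483 through 7427 to 21400 CPM. The ranges overlapped, and the GFP median stood at nearly the same level in both title sets (14495 and 14359 CPM), as did the control median (7629 CPM for J titles and 6310 CPM for the others).

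The starts of Fos and Egr4 are shown because they were the most abundant members past 2-fold, and that of Egr2 as a second Egr gene past 2-fold in every pairing. The windows run from 250 bases before to 50 bases after the RefSeq start (build GRCm38.p6). Fos is on the plus strand (chr12:85473640-85473939), Egr4 on the minus strand (chr6:85513540-85513839) and Egr2 on the plus strand (chr10:67537619-67537918, 1 of several RefSeq starts). Capitals mark TGACG, the short form of the cyclic AMP response element, on either strand, and in Egr2 also the CArG box, the serum response factor motif.
Fos: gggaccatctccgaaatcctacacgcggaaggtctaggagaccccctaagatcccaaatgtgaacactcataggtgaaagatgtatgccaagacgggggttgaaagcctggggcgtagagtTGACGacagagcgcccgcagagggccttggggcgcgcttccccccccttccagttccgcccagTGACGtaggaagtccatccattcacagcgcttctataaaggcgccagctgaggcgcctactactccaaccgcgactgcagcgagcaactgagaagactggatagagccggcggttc
Egr4: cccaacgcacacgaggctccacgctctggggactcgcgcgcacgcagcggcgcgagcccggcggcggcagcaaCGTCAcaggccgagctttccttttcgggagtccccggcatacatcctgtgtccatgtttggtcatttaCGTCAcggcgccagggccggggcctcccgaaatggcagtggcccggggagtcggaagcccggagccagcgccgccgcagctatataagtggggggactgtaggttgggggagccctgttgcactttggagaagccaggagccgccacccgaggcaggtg
Egr2: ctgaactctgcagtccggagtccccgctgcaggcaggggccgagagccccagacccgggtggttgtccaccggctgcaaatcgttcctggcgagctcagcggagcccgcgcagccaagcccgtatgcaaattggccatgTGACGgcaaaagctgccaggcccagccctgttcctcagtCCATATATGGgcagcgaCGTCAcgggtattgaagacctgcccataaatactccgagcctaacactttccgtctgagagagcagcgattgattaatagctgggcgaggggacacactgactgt
Of the 22 listed genes, 17 matched the RefSeq windows, which cover 27025 genes. TGACG was in at least 1 window of 12 of the 17 (70.6%) and of 23.05% of all genes, and of 4 of 17 microglia markers (23.5%); this short form was added to the motifs after the windows had been seen. The full element TGACGTCA was in 1 of 17 (5.88%, against 2.03% of all genes), the CArG box in 1 of 17 (5.88% against 1.81%), the E-box CACGTG in 4 of 17 (23.5% against 8.09%), and the AP-1 site (TGAGTCA or TGACTCA) in 0 of 17 against 5.95%. TGACGTCA and TGACG overlap by their letters. A match is a run of letters and not a bound site.

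Fos (ENSMUSG00000021250.13, chr12:85473890-85477273, plus strand), a partner in the AP-1 dimer, was at 3515 CPM in GFP cells (interval 3508 to 3523) and 1348 CPM in control cells (1339 to 1357). Over cells it ran from 0 through a median of 2666 to 10938 CPM with GFP and from 0 through 1160 to 8291 CPM without. The groups overlapped over most of their range, and 84.7% of GFP cells (interval 73.01% to 92.8%) reached 1000 CPM against 61.3% of control cells (42.2% to 78.2%). That is a 2.61-fold difference, a log2 ratio of 1.38, and it lay between 1.20 and 1.80 in the pairings. Without the cells rich in microglia transcripts described below, it was 0.64. Under a stricter limit, chosen after seeing the data, of 100 CPM of microglia markers, which left 41 GFP cells and only 3 control cells, Fos was at 3647 against 3889 CPM, a log2 ratio of -0.09. All 16 GFP cells of the higher title numbers held Fos at 1176 CPM or more.

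Egr4 (ENSMUSG00000071341.4, chr6:85511121-85513589, minus strand), a zinc finger factor of the Egr family, was at 2399 against 796 CPM. Its cells ran from 0 through 1982 to 9313 CPM with GFP and from 0 through 827 to 2603 CPM without. The 9 controls without a J title were lowest, with 956 CPM at most, and 76.3% of GFP cells (63.4% to 86.4%) reached 1000 CPM against 38.7% of control cells (21.9% to 57.8%). The difference was 3.01-fold, log2 1.59, between 1.18 and 3.13 in the pairings and 1.44 without the cells rich in microglia transcripts. Under the limit of 100 CPM of microglia markers, Egr4 was at 2588 against 1268 CPM (log2 1.03).

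Egr2 (ENSMUSG00000037868.15, chr10:67535475-67542188, plus strand), of the same family, was at 236 against 49.7 CPM, log2 2.22 (1.78 to 3.79 in the pairings), with a median cell of 0.73 CPM with GFP and 0 without. Jun, which pairs with Fos, was at 681 against 154.7 CPM, log2 2.13 (0.26 to 2.60), with median cells of 206 and 51.3 CPM. Klf4, a zinc finger factor, was at 59.5 against 2.93 CPM, log2 3.94 (3.31 to 4.68), and had a read in 38.98% of GFP cells and 22.6% of control cells. For Klf4 and Egr2 a minority of cells carried the level, since the median cell was at or near 0 in both groups. The summed ratios, in which deep cells count more, were the largest for all of Klf4, Egr2 and Jun. With equal weight per cell, log2 was 1.82 for Klf4, 1.07 for Egr2 and 1.24 for Jun. With cells thinned to a common depth, it was 2.01 for Klf4, 1.79 for Egr2 and 1.40 for Jun. For Klf4 both values lay below the range of its pairings, which also use summed reads.

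Of the other measured members, 8 are given here, all but Egr1 added after their values were seen. Fosb was at 310 against 106.8 CPM (log2 1.53) and Nr4a3, a nuclear receptor, at 325 against 156.5 CPM (log2 1.05), but without the cells rich in microglia transcripts these ratios were 0.67 and 0.17. Nr4a1 was at 671 against 355 CPM (log2 0.92) and Junb at 2040 against 1213 CPM (log2 0.75). Egr1, the most abundant Egr member, was at 2776 against 1907 CPM, log2 0.54, and its pairings ran from -0.18 to 2.21. Lower in GFP cells were Egr3 (16.5 against 44.6 CPM, log2 -1.38, but 1.90 without the cells rich in microglia transcripts), Ier2 (18.8 against 44.6 CPM, log2 -1.20) and Npas4, a factor induced by calcium entry (170 against 282 CPM, log2 -0.73).

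**Figure D2:**
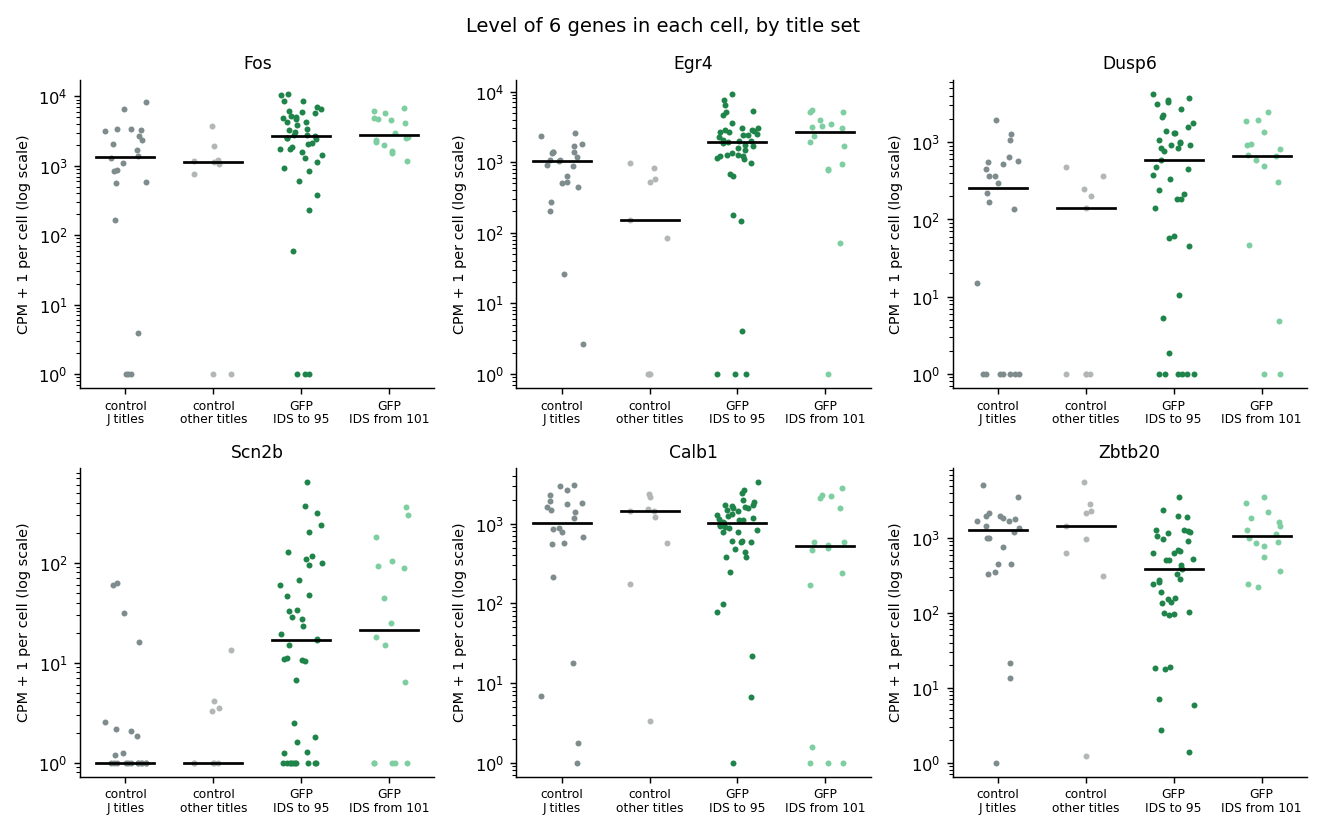
Each point is 1 cell, placed by its title set on the x axis and by CPM plus 1 on a log scale on the y axis, and black bars are medians. For Fos, Egr4 and Dusp6 both GFP title sets have higher medians than both control sets, for Scn2b the control medians are at 0, for Calb1 the sets overlap, and for Zbtb20 the GFP cells numbered to 95 are lowest.

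Effector genes of neuronal activity did not share that direction. Of 30 listed genes, 25 were measured, and 8 were higher and 17 lower; 2 were at least 2-fold higher and 6 at least 2-fold lower (8% and 24%, beside 19.3% and 13% of all measured genes), with a median log2 ratio of -0.44. Dusp6, a phosphatase of ERK that ERK signalling itself induces, was the highest: 991 against 282 CPM, log2 1.81 (1.40 to 2.63 in the pairings), and 1.498 without the cells rich in microglia transcripts. Its cells ran from 0 through 656 to 4252 CPM with GFP and from 0 through 200 to 1970 CPM without; it was picked after its values were seen. Gadd45g was at 2135 against 880 CPM, log2 1.28, and at 0.57 without the cells rich in microglia transcripts.

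At the other end, Sik1, a kinase that restrains CREB-driven transcription, was at 2.76 against 32.97 CPM (log2 -3.17, from -4.51 to -1.43 in the pairings). Nptx2, a secreted pentraxin that clusters AMPA receptors, was at 36.9 against 238 CPM (log2 -2.66), Mest at 26.6 against 153.4 CPM (log2 -2.48), and Lingo1, a membrane protein that limits axon growth, at 39.6 against 151.9 CPM (log2 -1.91, from -6.28 to -0.16 in the pairings and -0.61 without the cells rich in microglia transcripts). These 4 were lower in all 4 pairings, and in each the median cell was at 0 in both groups. Bdnf, the neurotrophin, was at 529 against 888 CPM (log2 -0.75), Arc, which acts at the synapse, at 1340 against 1750 CPM (log2 -0.39, from -2.16 to 0.27), and Homer1, a scaffold of the postsynapse, at 1107 against 627 CPM (log2 0.82, but 0.10 without the cells rich in microglia transcripts). The medians of the transcription factors and of the effectors thus lay on different sides of that of all measured genes.

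Microglia markers were the group that lay farthest from equality. Of 23 listed genes, 18 were measured and all 18 were at least 2-fold lower in GFP cells, with a median log2 ratio of -4.63; over the whole list, 22 were lower and P2ry13 had no read in either group. Tyrobp, an adaptor of immune receptors, was at 9.76 against 428 CPM (log2 -5.32): its cells ran from 0 through 0 to 741 CPM with GFP and from 0 through 86.2 to 2397 CPM without, and 6.78% of GFP cells and 64.5% of control cells had a read. C1qb, a subunit of complement C1q, was at 25.6 against 521 CPM (log2 -4.30), with median cells of 0 and 288 CPM. Fcer1g, P2ry12 and Trem2, all receptors or receptor subunits of microglia, each had 1 read in all GFP cells together. For Fcer1g that is 0.0045 CPM against 223 CPM, a ratio of 49557 whose counting interval runs from 8893 to 1957530.

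Summed over the list, the median cell was at 13.8 CPM with GFP and 1661 CPM without, and the range reached 10496 and 20038 CPM. The list passed 1000 CPM in 3 of 59 GFP cells (5.08%, interval 1.06% to 14.1%) and in 19 of 31 control cells (61.3%, 42.2% to 78.2%). Most control cells thus passed that limit, but the summed levels and their ratios were not spread evenly over them, since deep cells count more. The control cells J49, J51, J76 and T6 stood highest, at 20038, 18457, 14555 and 12066.5 CPM. The 3 GFP and 19 control cells past 1000 CPM are the cells rich in microglia transcripts: without them, 56 GFP and 12 control cells remain, and the median of the microglia list was -1.65. Cst3, an abundant microglia transcript that neurons and astrocytes also hold, was lower with them: 245 against 2747 CPM (log2 -3.48) in all cells and 0.27 without them. Ctsd, a lysosomal protease, went from -2.45 to 0.02, and Ftl1, the ferritin light chain, from -2.69 to -1.02. The part of microglia RNA in the other differences was not tested beyond leaving these cells out.

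Inflammatory genes were low in GFP cells too. Of 26 listed, 5 were measured and all 5 were lower, 3 of them at least 2-fold (median log2 -3.49, and 0.02 without the cells rich in microglia transcripts). Ccl4, a chemokine, was at 2.84 against 216 CPM and Ccl3 at 7.59 against 172 CPM; without those cells their log2 ratios were 0.02 and 1.42. Stat3, a transcription factor of cytokine signalling, was at 4.96 against 65.9 CPM (log2 -3.49) and stayed low without those cells, at -3.91. Of 39 interferon-stimulated genes, 36 were in the table and 2 were measured, both higher in GFP cells: Irf9 at 18.5 against 8.99 CPM and Stat2 at 29.4 against 16.6 CPM, each with pairings on both sides of 0. Of the rest, most were near the floor: 31 of the 36 were under 5 CPM in GFP cells and 7 had no read there. The list summed to 124.9 CPM in GFP cells and 386 CPM in control cells, and its median per cell was 28.4 and 41.4 CPM. Without the cells rich in microglia transcripts it summed to 117.1 and 101.4 CPM, and Stat2 turned to -0.85. Of 18 genes of MHC class I presentation, 3 were measured (median log2 -0.17, from -5.64 to 2.21 in the pairings and 0.93 without those cells), and of 21 genes of DNA sensing and pattern recognition, 4 (median -0.997, but 0.58 against the controls without a J title).

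Markers of the other cell types were closer to equality than the microglia list. The list of CA pyramidal and mossy cells, 4 of 20 measured, had a median log2 ratio of -1.08. It ran from -3.89 to 0.22 in the pairings and was -1.30 without the cells rich in microglia transcripts. Its median per cell was 193 CPM in GFP cells and 437 CPM in control cells. For interneuron markers these medians were 515 and 286 CPM, and for endothelial and mural markers 284 and 359 CPM. In each of these 2 lists 1 gene made up most of the summed level. For interneuron markers it was Gad1, which granule cells express, at 577 of 707 CPM in GFP cells and 671 of 706 CPM in control cells. For endothelial and mural markers the highest member held 320 of 351 CPM and 502 of 526 CPM. The astrocyte list, 9 of 18 measured, had a median log2 ratio of -0.96, with a median per cell of 432 CPM in GFP cells and 870 CPM in control cells; Glul, the glutamine synthetase of astrocytes, was at 3.58 against 68.7 CPM (log2 -3.93, and 1.92 without the cells rich in microglia transcripts), and Aqp4 and Gfap, which define the type, were at 7.27 against 0 CPM and 5.02 against 23.6 CPM. The oligodendrocyte list passed 1000 CPM in 5 GFP cells and 2 control cells, and its median per cell was 18.8 and 190 CPM. Without those 7 cells the log2 ratios of Fos, Egr4 and Dusp6 were 1.39, 1.58 and 1.85. The part of astrocyte transcripts in the results was not tested.

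**Figure D3:**
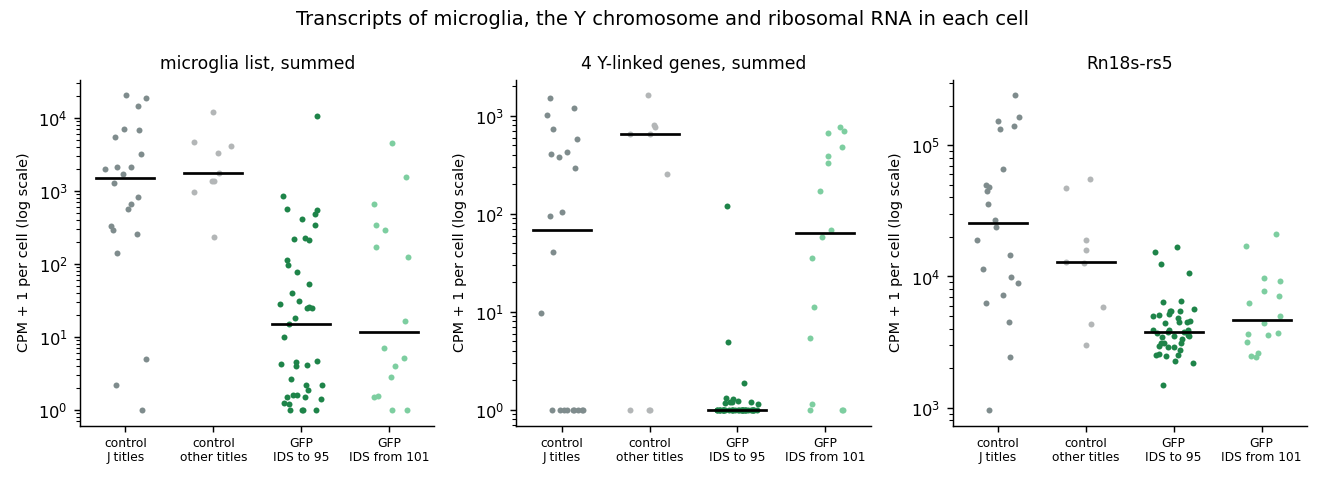
Each point is 1 cell by title set, with CPM plus 1 on a log scale and black bars at the medians. Microglia transcripts are lower in both GFP sets than in both control sets, Y-linked transcripts have a median of 0 in GFP cells numbered to 95, and Rn18s-rs5 is highest in J-titled controls.

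Other features of the libraries moved with the groups too. The Y-linked genes Ddx3y, Uty, Eif2s3y and Kdm5d together reached 10 CPM in 1 of 43 GFP cells numbered to 95, 11 of 16 numbered higher, 12 of 22 J-titled controls and 6 of 9 other controls. Rn18s-rs5 took 4665 CPM in GFP cells and 36508 CPM in control cells. The median mitochondrial share was 0.295% and 0.823%, while ribosomal protein genes summed to 11152 and 10640 CPM. The part of these features in the gene differences was not tested beyond the alternatives given at the end. With every cell thinned to 100000 reads, which left out 2 control cells, the median cell had 3139 genes with GFP and 3609 without.

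The 15 genes that were highest in GFP cells by the smallest of 3 ratios (summed counts, mean of cells, thinned cells) came from many functions: Scn2b, Cxx1c, Glrx2, Myc, Setd7, Mrpl11, Sugp1, Ttc39c, Clasp2, Lin37, Acbd6, Aatk, Hba-a2, Msto1 and Extl1. Since the genes were chosen by these ratios, the values describe them and support nothing. Their log2 ratios lay between 2.11 and 3.46, GFP levels between 17.9 and 268 CPM and control levels between 2.32 and 51.8 CPM. The next genes outside the rule were Hspa2 and Golt1b, whose smallest ratios were 2.07. For 13 of the 15 the median control cell was at 0, and for 7 the median GFP cell was too. All 15 stayed at least 2-fold higher without the cells rich in microglia transcripts.

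Scn2b (ENSMUSG00000070304.12, chr9:45117782-45130070, plus strand), the beta-2 subunit of voltage-gated sodium channels, led them at 58.1 against 6.45 CPM. Its cells ran from 0 through 16.2 to 636 CPM with GFP and from 0 through 0 to 61.2 CPM without, and at 100000 reads 64.4% of GFP cells and 17.2% of control cells had a read. The log2 ratio was 2.99, between 2.38 and 3.89 in the pairings and 1.84 without the cells rich in microglia transcripts. Clasp2, which stabilises growing microtubules, was at 175 against 31.6 CPM, with median cells of 17.4 and 0 CPM. Myc, a growth-related transcription factor, was at 225 against 19.6 CPM (log2 3.46), but its pairings spread from 1.41 to 7.36, and the median cell was at 0 in both groups. Glrx2, a mitochondrial glutaredoxin, had the narrowest pairings, 2.49 to 2.74, at 101.8 against 16.4 CPM. Hba-a2, an alpha globin gene, was at 17.9 against 2.32 CPM; reads that could belong to its near-identical copy Hba-a1 make it uncertain.

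Of the 15 lowest genes, 14 are named here: Fcer1g, Ctsz, Ucp2, Vamp8, Camk1, Tyrobp, Aif1, Sc5d, Zfp592, C1qb, Eif2s3y, Brf1, Ccdc184 and Necap2. The log2 ratios of the 15 lay between -7.80 and -3.00. Just outside stood Gnai3, whose smallest ratio was -2.95. Of the 15, 5 are on the microglia list and Eif2s3y is Y-linked. Ctsz and Ucp2, a lysosomal protease and a mitochondrial carrier that microglia express strongly, were at 6.36 against 273 CPM and 8.95 against 265 CPM. Without the cells rich in microglia transcripts, Ctsz went from log2 -5.22 to -3.00. Ucp2 hardly moved, from -4.74 to -4.49, with 226 CPM in the remaining control cells. Camk1, a calcium-dependent kinase, was at 9.39 against 179 CPM (log2 -4.12) and went to -0.94 without the cells rich in microglia transcripts, and the other 14 stayed at least 2-fold lower. Sc5d, an enzyme of cholesterol synthesis, was at 12.5 against 191 CPM: its cells ran from 0 through 0 to 381 CPM with GFP and from 0 through 0 to 2101 CPM without, its pairings were all between -3.96 and -3.54, and it was -4.22 without those cells. Eif2s3y was at 0.0965 CPM in GFP cells numbered to 95 and 101.04 CPM in those numbered higher.

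**Figure D4:**
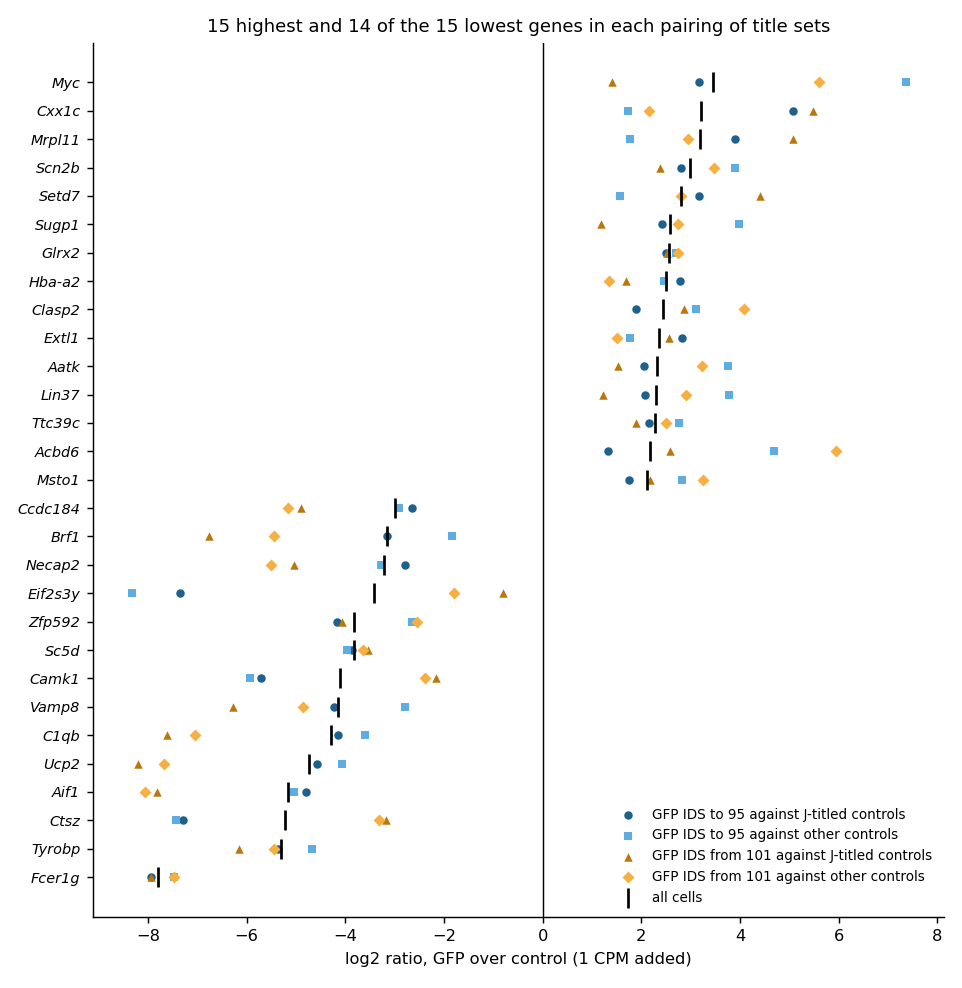
Log2 ratios of the 15 highest genes and 14 of the 15 lowest for the 4 pairings of title sets (coloured symbols) and for all cells (black bars), with 1 CPM added. Every symbol lies on the side of the bar, as the rule demands, and for Myc, Acbd6, Camk1 and Eif2s3y the pairings lie several log2 units apart.

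Granule cell identity genes showed a mixed picture. Of 15 transcription factors of the type, 14 were measured, 9 were lower and 5 higher, with a median log2 ratio of -0.45. Zbtb20, which sets hippocampal neuron fate, was at 729 against 1360 CPM: its cells ran from 0.40 through 522 to 3525 CPM with GFP and from 0 through 1364 to 5515 CPM without, and the log2 ratio was -0.90 (-1.28 to -0.23 in the pairings). Klf7, a factor of axon growth, was at 88.4 against 13.9 CPM (log2 2.59). Of 20 effector markers, 19 were measured, 12 were higher, 4 at least 2-fold, and 7 lower, none 2-fold, with a median of 0.25. Their share at least 2-fold higher, 21.1%, was near the 19.3% of all measured genes. Jun, described above, is 1 of these 4 and stands on both this list and that of immediate early transcription factors.

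Among those effectors, C1ql2, a secreted synaptic organiser of mossy fibres, was at 857 against 482 CPM (log2 0.83, 0.34 to 1.00 in the pairings); it was picked after its values were seen. Rasl10a, a small GTPase, was at 290 against 122.8 CPM (log2 1.24, 1.05 to 1.36), with median cells of 187 and 0 CPM. Pitpnc1, a lipid transfer protein, was at 97.4 against 24.04 CPM (log2 1.97, 1.53 to 2.20). Lct, the lactase gene, which in the hippocampus is known as a granule cell marker, had 18698 reads in 17 GFP cells and none in any control cell. Its 84.3 CPM were at least 1888-fold higher than the floor of 3 reads over the control group; they came from both GFP title sets, at 74.97 and 120.3 CPM.

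Potassium channels and glutamate receptors had medians below that of all measured genes. Of 31 measured potassium channel genes of 45, 11 were higher and 20 lower, 3 (9.68%) at least 2-fold higher and 8 (25.8%) at least 2-fold lower, beside 19.3% and 13% of all measured genes, with a median log2 ratio of -0.39. Kcnab2, a beta subunit of Kv1 channels, was at 51.9 against 152.5 CPM (log2 -1.54, -2.17 to -1.18), Kcnc1, a fast Kv3 channel, at 30.8 against 75.2 CPM (log2 -1.26, but 1.81 among cells under 10 CPM of the Y-linked genes), and Kcna3 at 117.9 against 33.6 CPM (log2 1.78, 0.57 to 4.39 in the pairings and 0.82 without the cells rich in microglia transcripts). Glutamate receptors, 15 of 22 measured, had a median of -0.39, with 5 higher and 10 lower. Of them, 0 were at least 2-fold higher and 3 (20%) at least 2-fold lower, beside 19.3% and 13% of all measured genes. The medians of their pairings lay between -0.36 and 0.003. GABA receptors, 11 of 14 measured, had a median of -0.20, which was 0.03 without those cells. Gabbr2, a subunit of the GABA-B receptor, was at 80.7 against 306 CPM (log2 -1.91, -2.73 to -1.45), with median cells of 2.68 and 150 CPM, and Gabrb1, a GABA-A subunit, at 340 against 115.8 CPM (log2 1.54, 0.32 to 2.22). Sodium, calcium and HCN channel genes, 24 of 31 measured, had a median of 0.29, with 15 higher and 9 lower, but the medians of the pairings lay between -0.08 and 0.08, and it was -0.10 without those cells.

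Housekeeping and synaptic lists had medians near 0: vesicle release machinery 0.01 (30 genes), proteasome subunits 0.10 (31), glycolysis 0.13 (20), splicing factors 0.04 (31), synaptic adhesion 0.10 (32) and actin cytoskeleton -0.12 (26). Single members still differed. Rims1, a scaffold of the release site, was at 41.9 against 121.8 CPM (log2 -1.52), Srsf5, a splicing factor, at 515 against 196 CPM (log2 1.39, 1.15 to 2.06), and Dbn1, which binds actin in spines, at 577 against 224 CPM (log2 1.36, 1.09 to 1.73). Dnajb1, an HSP40 chaperone, was at 673 against 259 CPM (log2 1.37, and 0.83 without the cells rich in microglia transcripts), within a heat shock list whose median was -0.13, or 0.28 without those cells. By size in CPM, further large gains were Calm2, calmodulin, at 4698 against 3056 CPM (log2 0.62), Ubb at 2528 against 1248 CPM (log2 1.02) and Hspa8, a constitutive chaperone, at 1967 against 1032 CPM (log2 0.93). A further large loss was Olfm1, a secreted neuronal glycoprotein, at 1681 against 2959 CPM (log2 -0.81, -0.98 to -0.77).

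**Figure D5:**
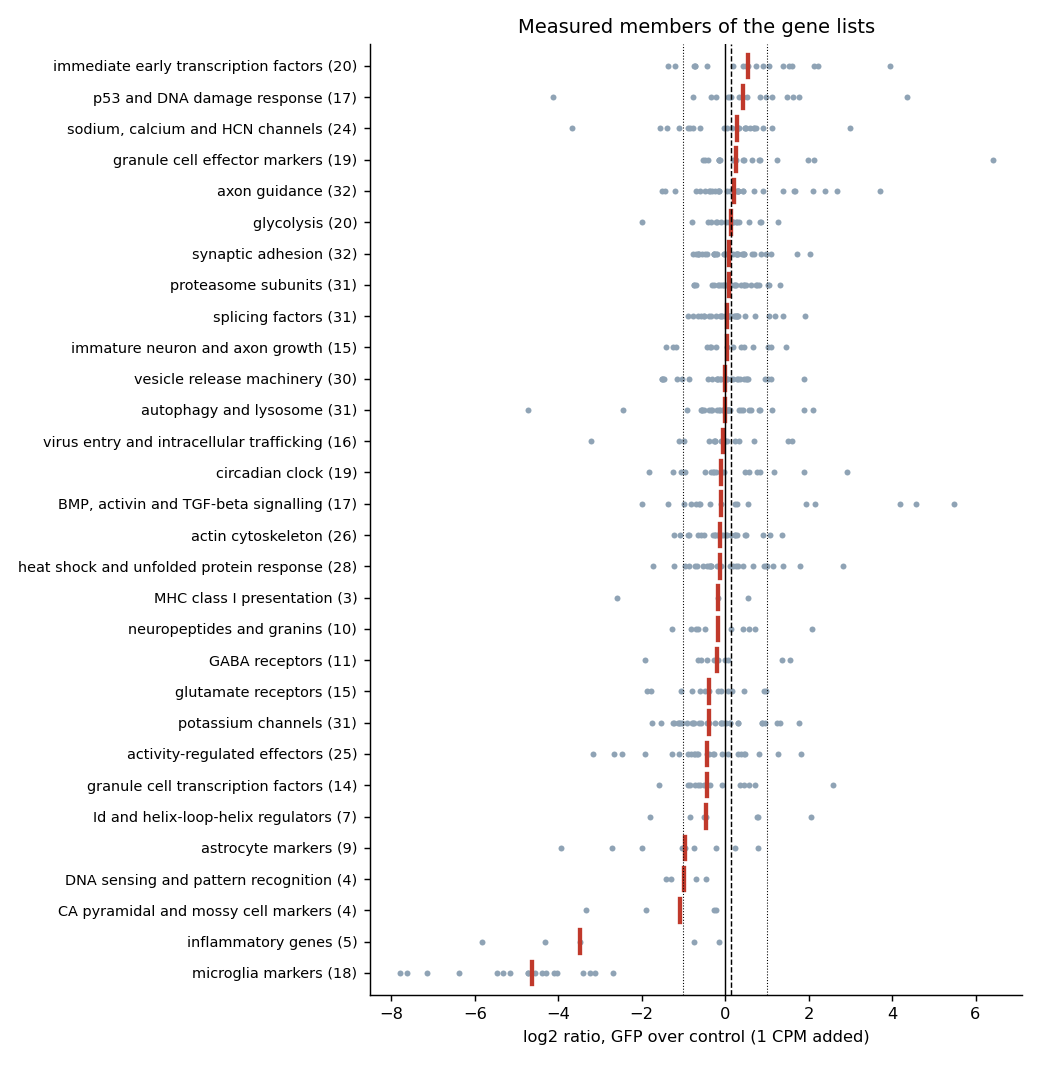
Each grey point is the log2 ratio of a measured member of a gene list, red bars are list medians, the dashed line is the median of all measured genes (0.13) and dotted lines mark 2-fold; the number of members is in parentheses, and lists with fewer than 3 measured members are left out. The microglia and inflammatory medians lie at -4.63 and -3.49, the immediate early transcription factors are the highest over all cells at 0.54, and most lists lie near 0.

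The Id2 cells of the series share title series and time after virus with the GFP cells, so the levels in those 71 cells are set beside both groups here; the series uses the GFP cells as their control. Fos was at 2232 CPM in Id2 cells, Egr4 at 1617, Jun at 798, Egr2 at 253 and Dusp6 at 805 CPM, each above the control cells' level and for Fos, Egr4 and Dusp6 below that of GFP cells. Tyrobp was at 42.2 CPM and C1qb at 79.8 CPM in Id2 cells, between both groups. Lct was at 0.0075 CPM in Id2 cells, unlike GFP cells. Id2 itself, an inhibitor of helix-loop-helix factors, was at 93.2 CPM in GFP cells and 127.9 CPM in control cells (log2 -0.45, but 1.64 without the cells rich in microglia transcripts).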

How the data were processed

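Cytosol of single granule cells was sequenced with Nextera XT libraries. Per the submitters' processing notes, the authors used Trimmomatic, STAR and featureCounts on build GRCm38, and the deposited table of whole numbers holds raw read counts per gene and cell; versions, counting strand and the rule behind the quality control label are not stated there or in the labels. A second deposited table holds a scaled signal, those counts times 1 factor per cell by the authors (0.187 to 287 over the 252 passing cells), and served as an alternative. The table names are the reverse of these contents, which were taken from the values. Of 70 labelled GFP and 42 labelled control cells, 7 and 10 that had a column but failed quality control were left out. So were 2 and 1 that passed but had no column. The remaining unused GFP cells had neither a Passed label nor a column.

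Counts were summed per group and expressed as CPM, and log2 ratios were computed with 1 CPM added. Summing weights cells by depth, so deep cells count more. Cells were also averaged with equal weight, and thinned to 100000 reads. No test was made, because no animal is labelled. The genes named were the 15 highest and 15 lowest by the smallest of 3 ratios (same sign in all 3 and in 4 pairings, a read in at least 40% of thinned cells of the higher group), up to 4 members per list, the 10 largest gains and 10 largest losses in CPM, and some fixed markers. Junb, Fosb, Nr4a1, Nr4a3, Egr3, Ier2, Npas4, Dusp6, Homer1, Arc, Bdnf, C1ql2, Cx3cr1, Aqp4 and the genes just outside the rule were added after their values were seen. The members and lists were chosen with earlier results of these data known. The calculation of the ratios was checked on simulated counts with set folds, drawn around 1 common profile. The simulated cells had no title sets and no cells rich in RNA of other types, so the check covers the calculation only. Python 3.11.15, numpy 2.4.6, pandas 2.3.3, scipy 1.17.1 and edgeR 4.0.16 (TMM factors only) were used, with RefSeq promoter windows and GENCODE positions. Some genes that the rule names are not reported here.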

Additional observations from a re-analysis of the deposited data

How the results depend on the processing

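In 21 other settings, 70 of the 83 followed genes past 2-fold never took the opposite sign, and the immediate early median stayed between 0.32 and 1.02. The count of unchanged signs is partly set by selection. The highest and lowest genes were chosen for the same sign in summed, averaged and thinned cells and in all pairings of title sets. For these genes the settings with the mean of cells, thinned cells or only part of the title sets could not turn the sign. A ratio of 0 was not counted as a change of sign. By the median over cells, genes whose median cell was at 0 in both groups, such as Myc, Sik1 and Sc5d, had a ratio of 0. Genes 2-fold or more higher numbered 654 by the median over cells, 4029 without a filter, 2521 against controls without a J title and 2890 among cells under 10 CPM of Y-linked genes (47 and 13 cells, chosen after seeing the data). Genes 2-fold or more lower numbered 2398 without a filter and 1820 with the GFP cells of higher title numbers only. The microglia median was -6.95 with those GFP cells only, -4.03 by the mean and 0 by the median over cells, -3.81 thinned, -3.78 from scaled signal, -1.65 without cells at 1000 CPM of microglia markers and -6.42 without cells at 1000 CPM of oligodendrocyte markers. Among values past 2-fold, signs turned without the cells rich in microglia transcripts for inflammatory genes (0.0197), Ccl4 (0.0197), Ccl3 (1.42), Ctsd (0.0164), Cst3 (0.27), Cx3cr1 (0.0132), Olfml3 (0.58), C1qa (2.32), P2ry12 (0.0066), Glul (1.92) and Egr3 (1.90). Smaller medians turned there too, among them MHC class I (0.93), sodium, calcium and HCN channels (-0.10), GABA receptors (0.03), heat shock (0.28), TGF-beta (0.31) and clock genes (0.06). Signs turned among cells under 10 CPM of Y-linked genes for glutamate receptors (0.32), potassium channels (0.35), Kcnc1 (1.81) and granule cell transcription factors (0.0083, and 0.0244 without the deepest 10% of cells). They turned against controls without a J title for CA and mossy markers (0.0624) and DNA sensing (0.58), by the mean of cells for helix-loop-helix regulators (0.0059), by the median of cells for Extl1 (-0.62), and for Ddx3y (0.15) with the GFP cells of higher numbers. The cause was not tested. A limit of 100 CPM of microglia markers left 3 control cells and was not run over all genes; Dusp6 was at 1.41 there. No paired analysis was possible because the title numbers do not pair cells of the groups. Thinning left 1468 genes 2-fold or more higher and 1054 lower.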

Other observations

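Genes of BMP, activin and TGF-beta signalling, 17 of 32 measured, had a median log2 ratio of -0.11, or 0.31 without the cells rich in microglia transcripts. Of them, 8 were higher and 9 lower in GFP cells. At least 2-fold higher were 5 (29.4%, beside 19.3% of all measured genes) and at least 2-fold lower 2 (11.8%, beside 13%). The genes named next are among the higher ones. Smad3, a transcription factor activated by TGF-beta and activin receptors, was at 87.1 CPM in GFP cells and 0.968 CPM in control cells (log2 5.49, 3.15 to 6.53 in the pairings), with a read in 44.1% and 9.68% of cells and a highest control cell of 18.04 CPM. Acvr1c, an activin receptor, was at 35.9 against 0.551 CPM, but its level came mostly from GFP cells numbered to 95 (44.7 against 1.87 CPM in the others). Fstl1, a secreted regulator of this signalling, was at 23.3 against 0.327 CPM, alike in both GFP sets (23.6 and 22.1 CPM). In Id2 cells, Smad3 was at 58.8, Acvr1c at 0.331 and Fstl1 at 2.19 CPM.

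Clock genes, 19 of 21 measured, split too, with 7 higher and 12 lower. Hlf, a clock output factor, was at 85.1 against 10.4 CPM (log2 2.91, 2.52 to 3.53), with a read in 49.2% and 16.1% of cells. Per3, a period gene, was at 134 against 35.7 CPM (log2 1.88), and Cry1, which acts in the same repressor complex, at 23.5 against 85.6 CPM (log2 -1.82). In Id2 cells Hlf was at 109.9, Per3 at 104.5 and Cry1 at 40.8 CPM. The labels give no time of day. Of the p53 list, 17 of 31 were measured and 13 were higher, beside 4543 of all 8085 measured genes. Its targets Ccng1 (39.2 against 0.968 CPM) and Cdkn1a (3.59 against 79.8 CPM) lay on opposite sides. The level of Ccng1 came mostly from GFP cells numbered to 95 (48.98 against 1.62 CPM in the others), and its pairings ran from 0.12 to 5.64. Those of Cdkn1a ran from -6.84 to -0.50.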
